A study of Homo sapiens with 6 samples.

Results

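The 10 long non-coding RNAs (lncRNAs) MALAT1, NEAT1, MEG3, HOTAIR, UCA1, PVT1, GAS5, SNHG1, CCAT1 and HULC, all known from cancer research, were followed in hepatoma cells that overexpressed another lncRNA, LINC00862. They were chosen by name, as the rows of the gene table whose gene name was one of these 10. Of the 35856 rows, 9 carried such a name, and CCAT1 was not analysed here. Among these 9, the low-count filter of edgeR kept 7 for testing, while HOTAIR and UCA1 were too low.

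HCCLM3, an established human hepatocellular carcinoma line, was transfected with a vector carrying LINC00862 or with the vector alone. The plasmid was pcDNA3.1, and 3 libraries were made per group. The control group is called Empty here and NC in the sample labels. Polyadenylated RNA was captured on oligo(dT) beads and sequenced in bulk, and the labels do not say whether the 3 libraries of a group came from separate cultures, so the p-values measure the spread between these libraries. Empty libraries held 59648337, 58241123 and 59243210 counts in total, and LINC00862 libraries held 68229070, 58781905 and 58913560.

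LncRNAs are transcripts with no long reading frame that act as RNA or through their own transcription. Several members have a defined place in the cell: MALAT1 lies in nuclear speckles, which store splicing factors, NEAT1 is the scaffold of paraspeckles, and GAS5 and SNHG1 are spliced from genes whose introns hold small nucleolar RNAs. HULC was first described as an RNA abundant in liver cancer, MEG3 is an imprinted RNA often lost in tumours, and PVT1 and CCAT1 flank the MYC gene.

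The 2 groups differed well beyond the members, markers of cell type included. VIM, an intermediate filament protein of mesenchymal cells, had an FPKM (fragments scaled by transcript length and by mapped fragments) of 539 on average in Empty and 3.77 in LINC00862. EPCAM, an epithelial surface protein, stood at 0.547 and 160. The summed FPKM of 12 fibroblast and mesenchymal markers was 589, 653 and 654 in Empty against 18.4, 18.3 and 22.0 in LINC00862, without overlap. VIM led this list in Empty and COL1A1 in LINC00862, 3 of the 12 genes were called higher and 6 lower (edgeR adjusted p below 0.05), and the median log2 fold change was -0.91. Over all tested genes, 34.4% were called higher and 29.8% lower, with a median of 0.11. Among those called, COL1A1 and COL6A3 had the largest rises and THY1 and VIM the largest falls, with log2 fold changes of 2.32, 1.33, -8.50 and -6.99.

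The 16 hepatocyte markers summed to 7.81, 7.85 and 8.07 FPKM in Empty and to 2220, 1970 and 1810 in LINC00862, led by the fibrinogen chain FGA in both groups. The fibrinogen chains FGA, FGB and FGG, at means of 796, 550 and 627, made up nearly all of the LINC00862 sum. TF came next at 15.5, among all 16 markers. Of the 13 tested, 11 were called higher and 2 lower (34.4% and 29.8% over all tested genes), with a median log2 fold change of 8.39, or 7.29 with genes at 0 in a group set at their bound, and APOA1, APOA2 and APOH were not tested. TTR, APOA2 and APOH, genes of proteins that the liver secretes, were at 0 in every Empty library. In LINC00862, APOA2 had counts of 0, 0 and 3 and APOH of 9, 0 and 14, near 0 as well, while APOA1 had 0, 0 and 14 in Empty and 0, 0 and 4 in LINC00862. The fetal liver protein AFP was at 0 in every LINC00862 library. The counts of ALB, the albumin gene, were 0, 0 and 7 in Empty and 423, 394 and 282 in LINC00862. Those of TTR in LINC00862 were 71, 93 and 50. Some defining markers of the labelled cell type were thus near or at 0 in Empty. Others were not, with Empty counts of 735, 698 and 645 for FGA and 363, 393 and 501 for SERPINA1. FOXA2, a liver transcription factor, had counts of 0, 4 and 0 in Empty and 1261, 891 and 1249 in LINC00862. Its log2 fold change of 9.70 (standard error 0.63) rests on 1 Empty library with reads and lay between 2.83 and 13.21 over the alternatives. AFP was at least 23.8-fold lower against a floor of 3 counts over the LINC00862 group, and SERPINA1 fell by 3.55 on the log2 scale.

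The 12 epithelial markers summed to 201, 243 and 294 FPKM in Empty and to 704, 665 and 574 in LINC00862, and the keratin KRT18 led in both. Of these, 9 were called higher and 1 lower (34.4% and 29.8% over all tested genes), with a median of 6.62, or 6.06 with OVOL2 at its bound. Without Empty library 1, KRT8 was also called lower (edgeR adjusted p = 0.0376, between 0.0376 and 1.00 over the alternatives). OVOL2 was at 0 in every Empty library and at least 47.0-fold higher in LINC00862, ESRP1 had a log2 fold change of 8.55, and CLDN3 fell by 4.97 on the log2 scale. The endothelial list summed to 1.80, 1.24 and 1.44 FPKM in Empty and 5.53, 5.96 and 4.48 in LINC00862, with a median of -0.08 and 1 of 5 tested genes called higher (34.4% over all tested genes), CDH5 at a log2 fold change of 3.63. VWF led this list in Empty and CDH5 in LINC00862. The leukocyte list summed to 3.76, 3.50 and 4.18 in Empty and 15.3, 15.6 and 9.68 in LINC00862, with CD14 leading in Empty and CD68 in LINC00862. Both were called higher, at log2 fold changes of 1.88 and 2.91, the other 4 genes did not pass, and the median was 1.07. These 2 of 6 genes are near the 34.4% called higher over all tested genes. The 9 intestinal markers with a row summed to 0.0633, 0.245 and 0.137 FPKM in Empty and 0.524, 0.261 and 0.238 in LINC00862. LGALS4 was the most abundant and the only one tested, and did not pass (log2 fold change 0.93). CDX2, GUCY2C and ASCL2 were at 0 throughout Empty and MUC2 throughout LINC00862. In bulk RNA, more or fewer cells of a type and more or less RNA per cell cannot be told apart, and neither can a difference between the cells of the groups and an effect of the vector, since each group has its own cells. The part of these marker differences in the members' values was not tested.

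**Figure D1:**
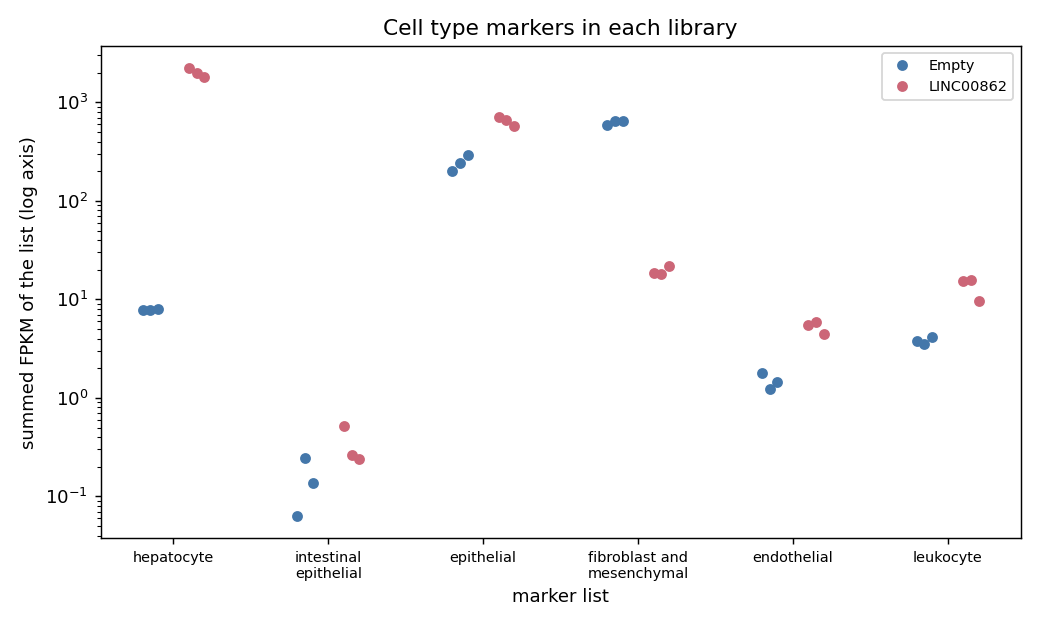
Summed FPKM of each list of cell type markers (log axis) in each of the 3 Empty and 3 LINC00862 libraries, 1 point per library. Mesenchymal markers lie between 589 and 654 in Empty and between 18.3 and 22.0 in LINC00862, while hepatocyte markers lie near 8 and between 1810 and 2220.

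LINC00862 itself was used as a check of the labels. It had counts of 11, 21 and 6 in Empty against 145, 121 and 76 in LINC00862, so each LINC00862 library was above each Empty library. The log2 fold change was 3.22 with a standard error of 0.53 (edgeR adjusted p = 0.000583). Its mean FPKM was low in both groups, 0.0507 in Empty and 0.449 in LINC00862. Since 34.4% of all tested genes and 46.3% of tested rows of lncRNA class were called higher, the call is a weak check. GAPDH, a glycolytic enzyme often used as a reference gene, had FPKM of 2350, 2910 and 3500 in Empty and 1580, 1550 and 1230 in LINC00862. It fell by 0.85 on the log2 scale (standard error 0.22, edgeR adjusted p = 0.00857) and was lower under all 14 alternative settings, although the test against a fold change of 2 did not call it (edgeR adjusted p = 0.777, with 0.000290 as the lowest over the alternatives).

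Of the 7 tested members, 4 were called higher in LINC00862, namely MALAT1, NEAT1, GAS5 and HULC, and 3 lower, namely SNHG1, PVT1 and MEG3. Across all 20741 tested genes, 7145 (34.4%) were called higher and 6176 (29.8%) lower at an adjusted p below 0.05. Among the 3649 tested rows of lncRNA class, which have lncRNA and no protein-coding transcripts, 1690 (46.3%) were called higher and 436 (11.9%) lower, with a median log2 fold change of 1.22 against 0.11 over all tested genes. The calls of the members therefore stand in a background in which most tested genes were called, and HULC passed the filter only through the group in which it was high. The FPKM of the 4 members called higher and the 3 called lower did not overlap between the groups. The same was true of 7140 tested genes in the upward direction (34.4%) and 7601 in the downward direction (36.6%).

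By level, SNHG1 was the most abundant member in Empty, at 42.9 ± 3.84 FPKM (SD, n = 3). NEAT1, GAS5 and MALAT1 followed at 30.0, 28.5 and 23.6, with overlapping ranges between neighbours in this order. PVT1 stood apart at 6.80, and MEG3, UCA1, HULC and HOTAIR were all below 0.1, where UCA1 and HULC overlapped. The place of PVT1 in either group depends on the length of its merged row, given with its values below. In LINC00862 the order was NEAT1 at 85.7 ± 6.34, GAS5 at 56.8 ± 2.11, MALAT1 at 43.0 ± 1.11, SNHG1 at 20.9 ± 0.592 and PVT1 at 4.28 ± 0.473 (SD, n = 3), with no overlap between neighbours. HULC, UCA1, MEG3 and HOTAIR were again below 0.1, each overlapping the next. SNHG1 thus went from place 1 to place 4. Among all 9145 rows of lncRNA class, NEAT1 was at place 11 by mean FPKM in Empty and place 5 in LINC00862, and SNHG1 at places 8 and 20.

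**Figure D2:**
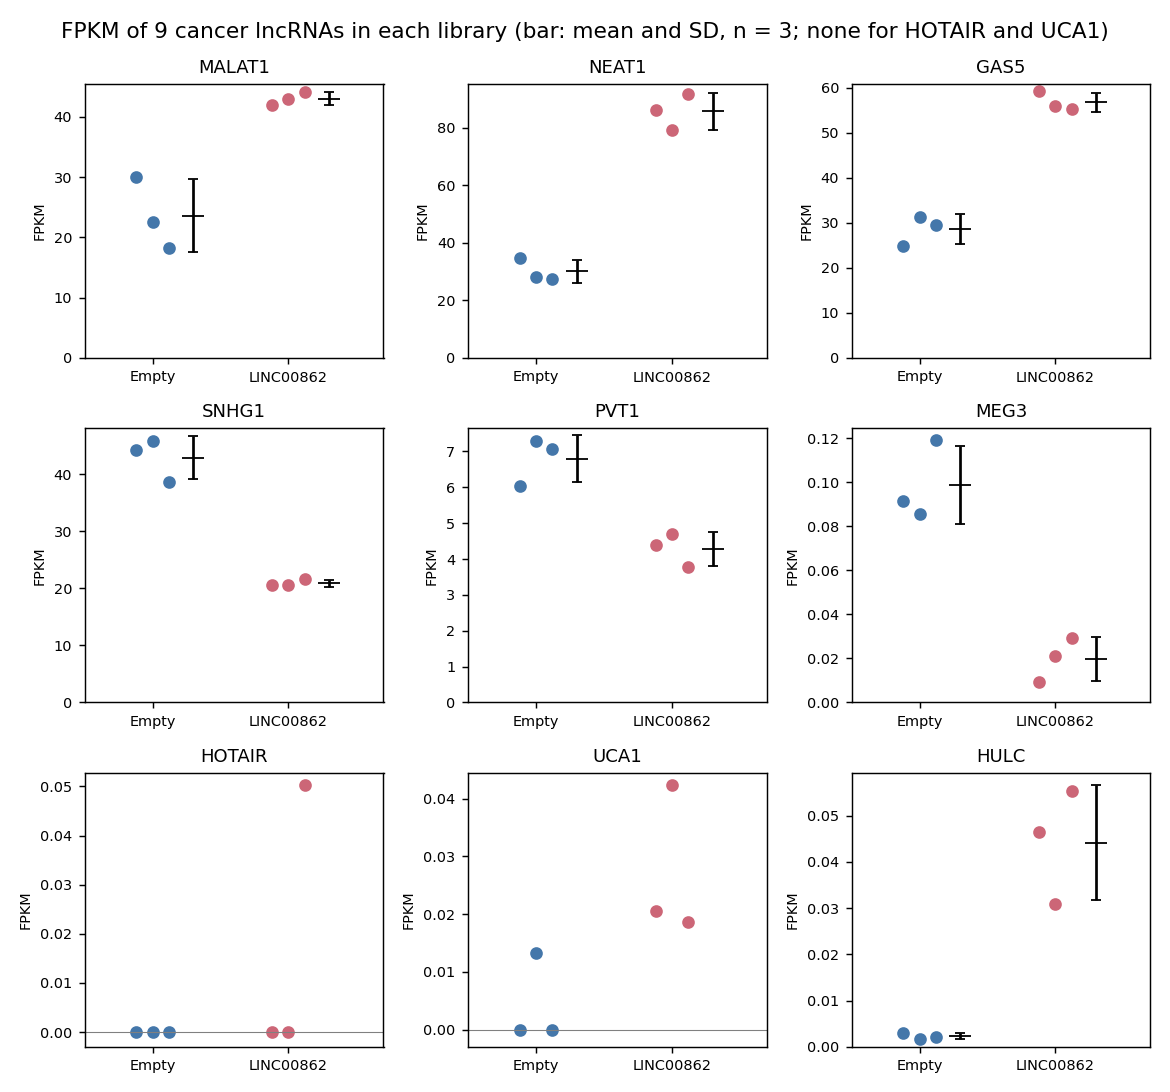
FPKM of the 9 members in each library, 1 panel per member with its own axis, and the mean and SD of 3 libraries beside the points except for HOTAIR and UCA1. NEAT1 lies between 27.4 and 34.6 in Empty and between 79.1 and 91.8 in LINC00862, while SNHG1 lies between 38.6 and 45.9 and then between 20.5 and 21.6.

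**Figure D3:**
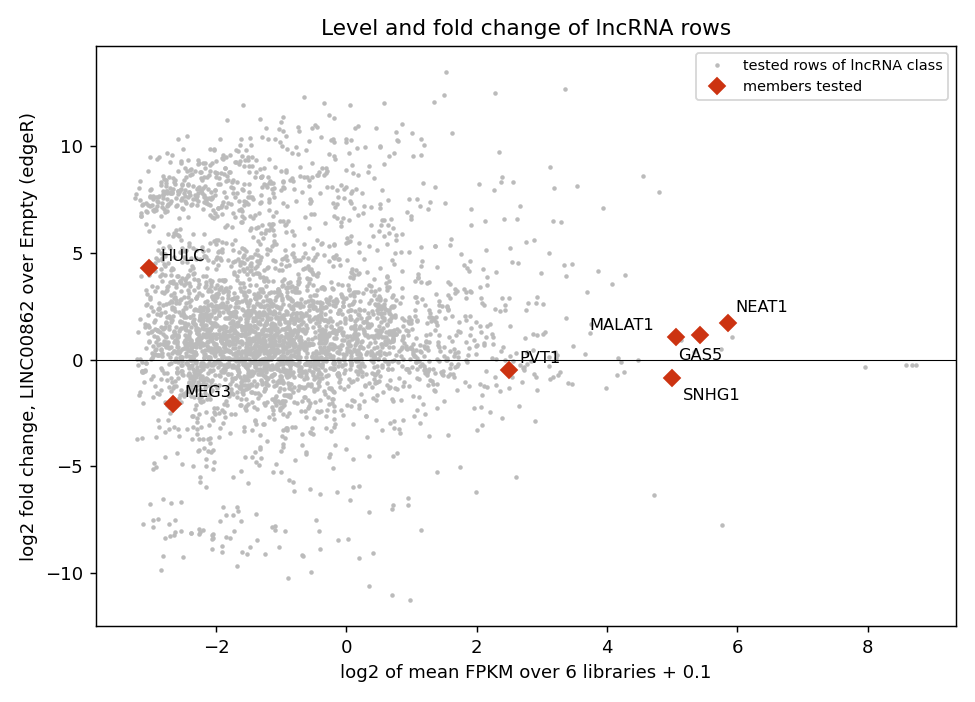
Log2 fold change of LINC00862 over Empty against the log2 of the mean FPKM plus 0.1 for the 3649 tested rows of lncRNA class (grey), with the 7 tested members as diamonds. MALAT1, NEAT1, GAS5 and SNHG1 lie at the high end of the levels, and HULC and MEG3 at the low end.

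MALAT1 and NEAT1, the RNAs of nuclear bodies, are transcribed in the same direction from neighbouring loci on chromosome 11, with 52.1 kb between their rows (GRCh38, chr11:65497688-65506469 for MALAT1 and chr11:65422774-65445540 for NEAT1). The ends of MALAT1 and of the long NEAT1 form are cut by RNase P, and an A-rich tract encoded in the genome folds with U-rich stretches into a triple helix that protects the end. Because the libraries were captured on oligo(dT), the tracts are shown as the 100 bases up to the end of the A-rich element, from the longest GENCODE 29 transcripts (GRCh38, plus strand, both in the single exon), at chr11:65506017-65506116 and chr11:65445441-65445540. Capitals mark the A-rich element.
MALAT1: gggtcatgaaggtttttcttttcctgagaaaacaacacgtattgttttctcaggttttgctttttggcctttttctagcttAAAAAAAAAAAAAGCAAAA
NEAT1: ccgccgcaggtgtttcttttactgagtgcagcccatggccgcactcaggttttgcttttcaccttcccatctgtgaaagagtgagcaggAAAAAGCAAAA
Both stretches end in AAAAAGCAAAA, which is found anywhere in 0.443% of 203677 GENCODE transcripts, searched on the transcript's own strand only. In the last 100 bases, searched on both strands, it is found in 0.0781%, so the 2 shares were counted by different rules. The NEAT1 element is at the transcript's end, whereas 353 bases of the MALAT1 transcript follow the element shown, and that transcript holds the letters 2 times. Its A run is 13 bases long in MALAT1 and 5 in NEAT1, and the NEAT1 transcript holds 5 other runs of at least 10 A, the longest of 22. The share of reads that came from these internal runs was not tested.

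MALAT1 (ENSG00000251562) had counts of 17606, 13035 and 10712 in Empty and 28332, 24989 and 26155 in LINC00862. In FPKM these were 30.1, 22.6 and 18.2 against 42.0, 42.9 and 44.2. All LINC00862 libraries were above all Empty libraries, and the spread was wider in Empty, where the first library was highest. The log2 fold change was 1.05 with a standard error of 0.18, a 2.08-fold difference (edgeR adjusted p = 0.000652). The tested profiles most like that of MALAT1 over the 6 libraries, by the Euclidean distance of centred log2(FPKM + 0.1) values, were SINHCAF, ZKSCAN1 and ZNF280D, at distances of 0.10, 0.10 and 0.11.

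NEAT1 (ENSG00000245532) had counts of 52126, 41914 and 41571 in Empty and 149695, 118960 and 140107 in LINC00862. Its FPKM was 34.6, 28.2 and 27.4 in Empty and 86.0, 79.1 and 91.8 in LINC00862. The lowest LINC00862 library was thus more than double the highest Empty library. The log2 fold change was 1.70 with a standard error of 0.17, a 3.24-fold difference (edgeR adjusted p = 2.84e-05). On the far side of NEAT1 from MALAT1, FRMD8, a partner of the rhomboid-like protease regulators, fell by 0.57 on the log2 scale (standard error 0.16, edgeR adjusted p = 0.0103), a call that upper quartile scaling and the test against a fold change of 2 did not keep, and 4 further rows at the locus were too low to be tested. The short polyadenylated and the long form share one row, so the form that rose cannot be told apart. The most similar profiles were those of ERO1A, LINC02175 and HSPA12A, at distances of 0.14, 0.15 and 0.17. The likeness of LINC02175 and HSPA12A depends on the added 0.1, since their mean FPKM in Empty was 0.0280 and 0.0286 and their log2 fold changes were 3.35 and 3.31.

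Most genes for the protein partners of these bodies were lower. Of 13 genes for paraspeckle proteins, 12 were called lower and CPSF6 did not pass, beside 29.8% called lower over all tested genes. The median log2 fold change was -0.89, against 0.11 over all tested genes. NONO, one of the core paraspeckle proteins, had FPKM of 70.9 on average in Empty and 22.9 in LINC00862 and fell by 1.45 on the log2 scale (standard error 0.13). HNRNPH3 fell most, by 1.59 (standard error 0.15). Of 12 genes for nuclear speckle proteins, 7 were called lower, 1 higher and 4 did not pass, beside 29.8% lower and 34.4% higher over all tested genes, and the median was -0.47. U2AF2, 1 of the 7, kept its call under 6 of 14 alternatives, and leaving out any single library except Empty library 1 ended it. The splicing factors SRSF2 and SRRM1 fell by 1.32 and 1.23 on the log2 scale, while SRRM2, a large scaffold protein of the speckle, rose, with a log2 fold change of 0.75. Without Empty library 1, SON was also called higher (edgeR adjusted p = 0.0430, between 0.0430 and 1.00 over the alternatives). Against a fold change of 2, only 2 of the paraspeckle genes and 1 of the speckle genes were still called lower.

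GAS5 and SNHG1 are hosts of small nucleolar RNAs, which are cut from their introns, and their spliced RNAs are known targets of nonsense-mediated decay. GAS5 (ENSG00000234741, chr1:173858559-173868882, minus strand) had counts of 7982, 9906 and 9532 in Empty and 21938, 17889 and 17971 in LINC00862. Its FPKM was 24.9, 31.3 and 29.5 in Empty and 59.2, 55.9 and 55.3 in LINC00862. Each LINC00862 library was above each Empty library, and the log2 fold change was 1.16 with a standard error of 0.16 (edgeR adjusted p = 0.000245). ZBTB37, a zinc finger gene that overlaps the start of GAS5 on the opposite strand, had counts of 512, 264 and 344 in Empty and 1014, 841 and 841 in LINC00862, with a log2 fold change of 1.38 (standard error 0.23, edgeR adjusted p = 0.000722). GAS5-AS1, which lies within GAS5 on the opposite strand, had FPKM of 0.863 ± 0.379 and 0.684 ± 0.151 (SD, n = 3), and did not pass. The library protocol kept the strand by marking the second strand with dUTP, but whether the counting used it is not stated, so reads of these overlapping genes cannot be told apart with certainty. NUBP1, ZNF213-AS1 and LEAP2 had the profiles most like that of GAS5, at distances of 0.07, 0.09 and 0.13.

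SNHG1 shares its upstream region with SLC3A2, which encodes the heavy chain of cystine and leucine transporters and is transcribed the other way, so that the starts of the 2 rows are 149 bases apart. The RefSeq promoter window of SNHG1 (GRCh38.p14, chr11:62855836-62856135, minus strand, 300 bases around the RefSeq start) is shown because it holds the starts of both rows, of SLC3A2 at base 34 and of SNHG1 at base 183. Capitals mark matches to GCATGCGC, the core of the NRF1 motif, and to the letters TATAAA on either strand.
SNHG1: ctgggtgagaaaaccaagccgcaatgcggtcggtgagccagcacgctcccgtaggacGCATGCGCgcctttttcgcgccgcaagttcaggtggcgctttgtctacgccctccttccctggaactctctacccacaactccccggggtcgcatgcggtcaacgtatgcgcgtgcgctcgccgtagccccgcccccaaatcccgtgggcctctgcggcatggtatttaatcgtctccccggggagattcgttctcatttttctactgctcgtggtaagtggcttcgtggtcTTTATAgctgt
The NRF1 core is at base 58 and is in 3.02% of the 34943 promoter windows on either strand. The letters TATAAA, at base 290 on the opposite strand and after the start of the SNHG1 row, are in 11.6% and are a match of letters only. The CCAAT box is in 34.6% of the windows, the cyclic AMP response element in 1.84% and the E-box with the letters CACGTG in 7.23%, and these had no match here on either strand. Windows were found for 4 of the 10 members, MALAT1, MEG3, GAS5 and SNHG1.

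The counts of SNHG1 (ENSG00000255717, chr11:62851984-62855953, minus strand) were 11669, 11906 and 10239 in Empty and 6251, 5416 and 5760 in LINC00862. In FPKM these were 44.3, 45.9 and 38.6 against 20.5, 20.6 and 21.6. All LINC00862 libraries were below all Empty libraries, and SNHG1 fell by 0.86 on the log2 scale (standard error 0.14, edgeR adjusted p = 0.000614). SLC3A2, on the other side of the shared region, went the opposite way, with FPKM of 51.1, 56.4 and 61.5 in Empty and 127, 135 and 94.5 in LINC00862 and a log2 fold change of 1.24 (standard error 0.17, edgeR adjusted p = 0.000240). WDR74, on the far side of SNHG1 and a factor of ribosome assembly, fell by 0.58 on the log2 scale (standard error 0.19, edgeR adjusted p = 0.0242). That call was kept under 6 of 14 alternatives, and it was lost without Empty library 2 (edgeR adjusted p = 0.0785), without Empty library 3 (0.0748) and without LINC00862 library 1 (0.0655), 2 (0.0650) or 3 (0.0751). The 7 small nucleolar RNA rows inside SNHG1 had at most 1 count in every library. The profiles of HNRNPA3, NFYB and BX005019 were most like that of SNHG1, at distances of 0.09, 0.09 and 0.10, although BX005019 was at 0 in every LINC00862 library, where the added 0.1 sets its profile.

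Of 22 other lncRNAs that host small nucleolar RNAs, 5 were called higher, 6 lower and 11 did not pass, beside 34.4% higher and 29.8% lower over all tested genes. Their median log2 fold change was 0.03, against 0.11 over all tested genes. The tested rows of lncRNA class had 46.3% called higher and 11.9% lower, with a median of 1.22. SNHG18 had counts of 0, 4 and 5 in Empty and 257, 181 and 246 in LINC00862, and a log2 fold change of 6.27 (standard error 0.68). SNHG22 had one of 1.59 (standard error 0.53), and its call was lost without Empty library 2 (edgeR adjusted p = 0.0718) and without LINC00862 library 2 (0.122), with a range of 0.0145 to 0.131 over the alternatives. SNHG14, the long transcript of the imprinted Prader-Willi locus, had counts of 2150, 1470 and 1006 in Empty and 46, 31 and 56 in LINC00862, and fell by 4.99 (standard error 0.36). SNHG12 fell by 1.47 (standard error 0.21). Of 10 nonsense-mediated decay factors, 6 were called lower, beside 29.8% over all tested genes, and the list had a median of -0.75. Of the paralogs UPF3B and UPF3A, UPF3B fell by 2.12 on the log2 scale (standard error 0.18) and UPF3A fell by 1.97 (standard error 0.19).

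PVT1 (ENSG00000249859, chr8:127794526-128187101, plus strand) is a long host gene of microRNAs next to the oncogene MYC, 53.1 kb away. Its counts were 10055, 11952 and 11811 in Empty and 8394, 7785 and 6356 in LINC00862. In FPKM these were 6.05, 7.30 and 7.06 against 4.38, 4.70 and 3.77, so the groups did not overlap. PVT1 fell by 0.50 on the log2 scale with a standard error of 0.15 (edgeR adjusted p = 0.0174), the weakest call among the members. The call was lost under upper quartile scaling (edgeR adjusted p = 0.132), with a replicate block (0.0563), without Empty library 2 (0.0718), without LINC00862 library 1 (0.0628) and without LINC00862 library 3 (0.0568), within a range of 0.00115 to 1.00 over the alternatives. The row merges 138 transcripts. Its FPKM and counts imply a length near 28140 bases, against 5493 bases covered by its GENCODE exons. The level per length, and the place of PVT1 among the members, therefore depend on that merging.

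MYC itself had FPKM of 116, 108 and 105 in Empty and 41.5, 43.1 and 41.2 in LINC00862. It fell by 1.21 on the log2 scale with a standard error of 0.13 (edgeR adjusted p = 4.93e-05), more than PVT1 did. TMEM75, a row inside PVT1 on the opposite strand, had counts of 143, 116 and 106 in Empty and 667, 507 and 551 in LINC00862, and a log2 fold change of 2.34 (standard error 0.23). AC103705, another row inside PVT1 on the opposite strand, had counts of 47, 36 and 12 in Empty and 9, 0 and 7 in LINC00862 and fell by 2.44 (standard error 0.94, edgeR adjusted p = 0.0471). Only 5 of 14 alternatives kept this call, and leaving out any single library except Empty library 3 ended it (edgeR adjusted p between 0.0679 and 0.112). Rows within PVT1 thus went both ways, and the limit on strand given for GAS5 holds here too. The other 8 rows at the locus were too low.

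Of the 11 listed genes of the MYC region, 8 were tested, of which 5 were called higher and 3 lower, beside 34.4% and 29.8% over all tested genes, and the median was 2.21 against 0.11. Among tested rows of lncRNA class the shares were 46.3% and 11.9% and the median 1.22. CASC19 passed the low-count filter only through LINC00862 and CASC8 only through Empty, the groups in which they were high. The calls of these genes and the list's median are limited by that. PRNCR1, an lncRNA and 1 of the 3 called lower (edgeR adjusted p = 0.0456), kept its call under 4 of 14 alternatives, and leaving out any single library except Empty library 1 ended it. By limma-trend on log2(FPKM + 1), where CASC19 and PCAT1 lost their calls, 3 were called higher, and without LINC00862 library 3 the number was 4. CASC11, an lncRNA beside MYC, had counts of 15, 12 and 16 in Empty and 336, 365 and 312 in LINC00862, and CASC19 had counts of 0, 0 and 2 in Empty and 53, 69 and 59 in LINC00862. The log2 fold change of CASC11 was 4.65 (standard error 0.32) and that of CASC19 6.35 (standard error 0.88). With 2 counts in Empty, the ratio of CASC19 per total count was 86.2, with an exact 95% interval of 23.5 to 717 that covers counting error only, not the spread between libraries. CASC8 had counts of 32, 43 and 56 in Empty and 0 in every LINC00862 library, which makes it at least 45.8-fold lower against a floor of 3 counts over the group. CCAT2 and POU5F1B were too low to be tested, and FAM49B was not analysed here. The tested profiles most like that of PVT1 were UFD1, AC010343 and TIMM23, at distances of 0.09, 0.12 and 0.12, and the calls of these genes were lost under 7 or more of the 14 alternatives.

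MEG3 (ENSG00000214548, chr14:100779410-100861031, plus strand) is expressed from the maternal copy of the DLK1-DIO3 imprinted region. A promoter window of MEG3 is shown because this element is known to answer to cyclic AMP (RefSeq, GRCh38.p14, chr14:100825858-100826157, plus strand). The window surrounds the RefSeq start and lies inside the counted row, which starts further upstream at chr14:100779410. Capitals mark the cyclic AMP response element with the letters TGACGTCA at base 201, the CCAAT box at base 158 and a match to the TATA motif at base 233. The NRF1 core and the E-box had no match on either strand.
MEG3: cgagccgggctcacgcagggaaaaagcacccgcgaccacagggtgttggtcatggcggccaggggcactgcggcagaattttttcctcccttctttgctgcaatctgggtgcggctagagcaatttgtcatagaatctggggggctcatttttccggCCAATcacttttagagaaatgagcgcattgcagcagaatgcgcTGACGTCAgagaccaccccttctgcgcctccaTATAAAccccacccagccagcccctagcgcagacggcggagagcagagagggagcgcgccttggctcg
The counts of MEG3 were 145, 132 and 188 in Empty and 18, 34 and 47 in LINC00862. Its FPKM was 0.0916, 0.0855 and 0.119 in Empty and 0.00940, 0.0209 and 0.0291 in LINC00862. MEG3 was low in both groups, and lower in every LINC00862 library than in every Empty library. It fell by 2.09 on the log2 scale with a standard error of 0.46 (edgeR adjusted p = 0.00340). Its 3 neighbouring or overlapping rows were too low to be tested.

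Of the other genes of the imprinted region, 4 had a row. The lncRNAs MEG8 and MEG9 and the retrotransposon-derived gene RTL1 had at most 9 counts in any library, and DLK1 and DIO3 were not analysed here. BEGAIN, a gene of a synaptic protein at the edge of the region and the only tested one of the list, had counts of 16, 0 and 7 in Empty and 2462, 2128 and 2450 in LINC00862. Its log2 fold change, which is also the list's median, was 8.35 with a standard error of 0.56 (edgeR adjusted p = 2.39e-06), so MEG3 and BEGAIN went in opposite directions.

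HOTAIR (ENSG00000228630, chr12:53962308-53974956, minus strand), a lncRNA of the HOXC cluster known to bind chromatin-modifying complexes, had counts of 0, 0 and 0 in Empty and 0, 0 and 9 in LINC00862. A count of 0 allows up to 3 counts, and all reads came from 1 library, so no fold change is given. When every gene with at least 1 count was kept, HOTAIR did not pass (edgeR adjusted p = 0.196), and the exact permutation test of FPKM gave p = 1.00. HOXC11, which overlaps HOTAIR on the opposite strand, had counts of 0, 0 and 0 in Empty and 23, 34 and 46 in LINC00862 and was at least 32.7-fold higher there against 3 counts over the group (edgeR adjusted p = 0.000568). HOXC10, the next gene, had counts of 15, 8 and 12 in Empty and 135, 64 and 55 in LINC00862, with a log2 fold change of 2.91 (standard error 0.49). The third neighbour, HOXC12, was too low.

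Of the 9 HOXC genes, 7 were tested, of which 3 were called higher (HOXC6, HOXC10 and HOXC11) and 4 did not pass, beside 34.4% called higher over all tested genes, with a median log2 fold change of 2.71. HOXC13 had FPKM of 0.558 on average in Empty and 0.238 in LINC00862, and did not pass (edgeR adjusted p = 0.0528). It was called lower without Empty library 2 (edgeR adjusted p = 0.0397), with library size only and by limma-trend at both pseudocounts, with a range of 0.0180 to 0.428 over the alternatives. The mean FPKM of every HOXC gene was below 1 in both groups. Of 9 genes for the PRC2 and LSD1 complexes, which HOTAIR is known to bind, 7 were called lower and 2 did not pass, beside 29.8% called lower over all tested genes, with a median of -0.59. RCOR1, 1 of the 7 (edgeR adjusted p = 0.0467), kept its call under 4 of 14 alternatives, and leaving out any single library except Empty library 2 ended it. The demethylase KDM1A had FPKM of 24.2 in Empty and 6.10 in LINC00862 and fell by 1.81 on the log2 scale (standard error 0.14), and the histone chaperone RBBP7 fell by 1.44 (standard error 0.13). Against a fold change of 2, 2 of these genes were called lower.

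UCA1 (ENSG00000214049, chr19:15828206-15836327, plus strand), an RNA first described in bladder cancer, had counts of 0, 4 and 0 in Empty and 7, 12 and 6 in LINC00862. Each LINC00862 library was above each Empty library, but the counts were too low for the filter. The exact permutation test of FPKM gave p = 0.1, the smallest that 3 against 3 libraries allow, and with every gene kept UCA1 did not pass (edgeR adjusted p = 0.222). CYP4F3, a fatty acid hydroxylase and the only tested neighbour, had FPKM of 0.0232 ± 0.0206 in Empty and 0.0369 ± 0.0228 in LINC00862 (SD, n = 3) and did not pass, and 3 other rows were too low.

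HULC had counts of 11, 6 and 8 in Empty and 177, 100 and 182 in LINC00862 in the row that carries its name (ENSG00000285219, chr6:8435568-9227131, plus strand). Its FPKM was 0.00305, 0.00171 and 0.00223 in Empty and 0.0465, 0.0308 and 0.0552 in LINC00862. Every LINC00862 library was above every Empty library, and the log2 fold change was 4.29 with a standard error of 0.45 (edgeR adjusted p = 4.11e-05). The row is 792 kb long, whereas the RefSeq gene of that name spans 1.59 kb inside it (GRCh38.p14, chr6:8652269-8653856). Of the 14 transcripts listed for the row, 13 were in GENCODE 29, and 2 of them had an exon in the RefSeq interval. Reads of HULC proper and of the longer transcripts therefore cannot be told apart, and the FPKM, which implies a length of 58.2 kb, is not the level of the short RNA.

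The start of the HULC row is 7 bases from that of SLC35B3, a sulfate donor transporter gene on the opposite strand. SLC35B3 rose with a log2 fold change of 0.57 (standard error 0.14, edgeR adjusted p = 0.00661), from an FPKM of 6.41 ± 0.832 to 8.37 ± 0.0355 (SD, n = 3), and lost its call with library size only and in the test against a fold change of 2. On the other side, 1166054 bases away, the transcription factor gene TFAP2A fell by 1.58 on the log2 scale (standard error 0.18, edgeR adjusted p = 5.99e-05), and 1 other row was too low.

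**Figure D4:**
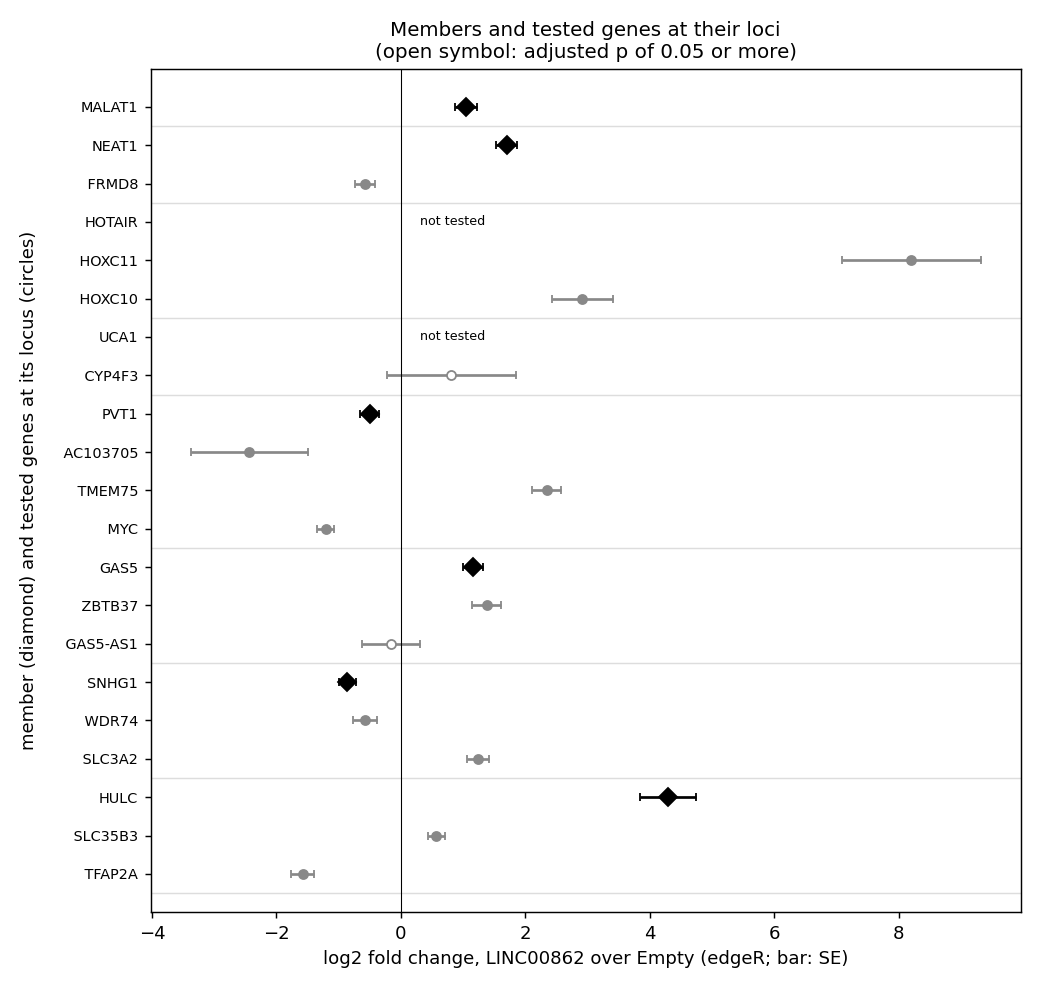
Log2 fold change of LINC00862 over Empty with its standard error for each member (diamonds) and tested overlapping genes (circles), with the nearest tested genes too except for MALAT1 and GAS5, and with open symbols for an adjusted p of 0.05 or more. SNHG1 and SLC3A2 lie on opposite sides of 0, as do PVT1 and TMEM75, and the fitted value of HOXC11 depends on the prior count because it was at 0 in every Empty library.

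**Figure D5:**
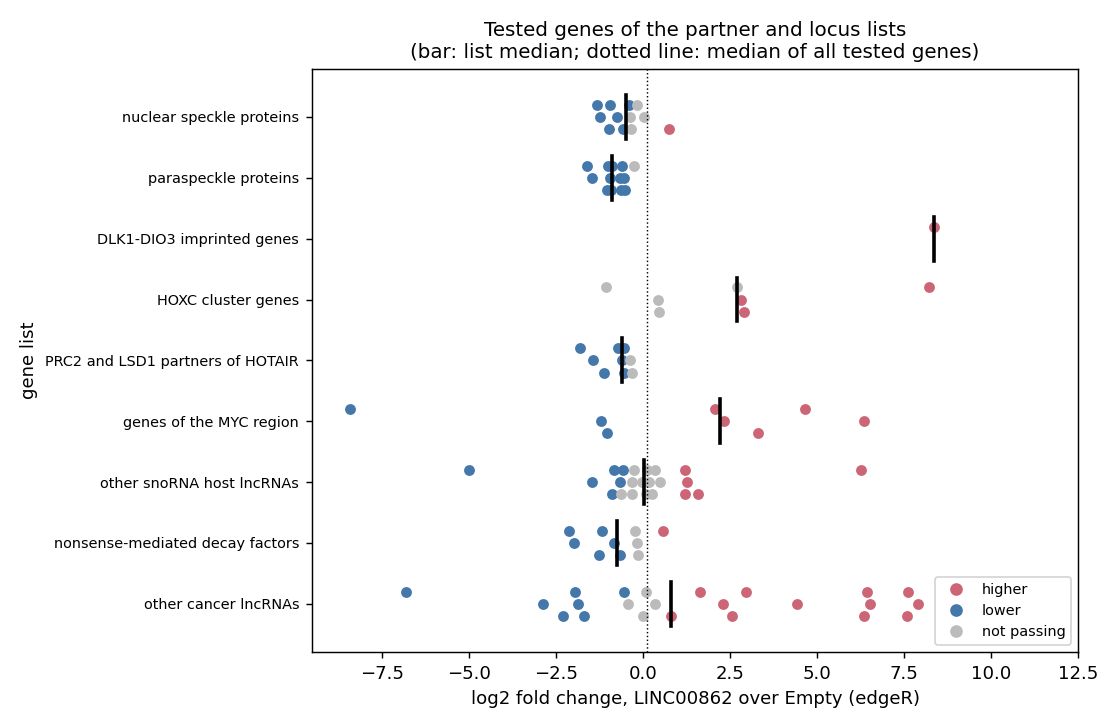
Log2 fold change of each tested gene of the partner and locus lists, coloured by call, with the list median as a bar and the median of all tested genes (0.11) as a dotted line. Paraspeckle proteins lie at or below -0.25, and genes of the MYC region lie on both sides of 0, where the fitted value of CASC8, like that of HOXC11 in the HOXC cluster, depends on the prior count.

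No tested member changed direction under any of the 14 alternatives. In the test against a fold change of 2, the calls of NEAT1, HULC and MEG3 were kept, while MALAT1 (edgeR adjusted p = 0.337), GAS5 (0.141), SNHG1 (0.898) and PVT1 (1.00) were not called, each at the highest value over its alternatives. HULC lost its call by limma-trend on log2(FPKM + 1) (adjusted p = 0.0636, the highest of its alternatives), where its FPKM lies far below the added 1. The exact permutation test of FPKM gave p = 0.1, the smallest possible, for 8 of the 9 members with a row and p = 1.00 for HOTAIR.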

How the data were processed

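The authors deposited 1 table with 2 values per gene and library, the raw read count and the FPKM, which scales the fragments of a gene by transcript length and mapped fragments. The submitters' processing notes list cutadapt 1.9, HISAT2 2.0.4, UMI-tools, StringTie 1.3.4d, DESeq2 and edgeR, with no role or order, and hg38. Whether counting used the strand or collapsed molecular identifiers is not given in the sources used here. The deposited counts were tested with edgeR 4.0.16 in R 4.3.3, using filterByExpr, TMM scaling, the quasi-likelihood test and Benjamini-Hochberg adjustment over all 20741 tested genes, with calls at an adjusted p below 0.05. Standard errors were derived from the test statistic. The procedure was tested on simulated data. For single members, FPKM was also compared with an exact permutation test, two-sided. Alternatives used DESeq2 1.42.0, limma 3.58.1 and other settings. Python 3.11.15 with pandas 2.3.3 wrote the tables. Folds against a group at 0 used a floor of 3 counts over the group, which covers counting error only. List genes near 0 in 1 group passed the filter only through the other group, as HULC did.

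Genes named are the members, LINC00862, GAPDH, tested genes overlapping or nearest to a member, the 3 tested genes whose profile was nearest to that of each member reaching 1 FPKM on average in a group, and, for each of 15 lists, up to 2 largest rises and 2 largest falls among called genes without overlap in FPKM. A few genes that this rule names are not reported here. Other list genes are named where a count was small, after their values were seen. The members and lists were chosen with earlier results of these data known. Promoters came from RefSeq (GRCh38.p14) and transcript ends from GENCODE 29.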

Additional observations from a re-analysis of the deposited data

How the results depend on the processing

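The members kept their direction under all 14 alternatives, and 88 of 98 values also kept their side of the threshold. The test against a fold change of 2 called 2 members higher and 1 lower, and it called 4806 genes higher and 3204 lower in all, since it asks for more than a difference. With the replicate block, 4 members were called higher and 2 lower, against 4 and 3 without it, and the block called 6542 genes higher and 5556 lower, against 7145 and 6176. PVT1 was the member lost, with an adjusted p of 0.0563 in that edgeR fit. The labels tie the replicate numbers to nothing shared, and libraries of the same number did not deviate together (correlations of -0.0489, -0.0254 and -0.0074 over genes, themselves not independent), so they were not taken as paired. Leaving out 1 library at a time gave 6374 to 7535 genes called higher and 5489 to 6398 lower, 4 members called higher each time and 2 to 3 lower. Over the tested genes, TMM gave a median log2 fold change of 0.11, scaling by the upper quartile 0.32 and by library size alone -0.05, so each value is relative to that shift. On the log2(FPKM + 1) scale the differences of HULC and MEG3 shrank to 0.06 and -0.11. Of 420 counts of called list genes, 397 stayed within 1.5 times the main count, and 10 of the other 23 came from the test against a fold change of 2. Depth limits HOTAIR, UCA1, MEG3 and HULC, whose counts were at most 188.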

Other observations

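Of 30 other lncRNAs known from cancer, 28 had a row and 23 were tested, of which 12 were called higher, 7 lower and 4 did not pass. Over the tested rows of lncRNA class 46.3% were called higher and 11.9% lower, and over all tested genes 34.4% and 29.8%. Their median log2 fold change was 0.82, against 1.22 over the tested rows of lncRNA class and 0.11 over all tested genes. CRNDE, an RNA raised in colorectal tumours, had counts of 12, 7 and 7 in Empty and 2175, 1897 and 1837 in LINC00862, and a log2 fold change of 7.91 (standard error 0.24). LINC01234 had counts of 3, 0 and 0 in Empty and 238, 206 and 172 in LINC00862, and a log2 fold change of 7.61 (standard error 0.73). With 3 counts in Empty, its ratio per total count was 196, with an exact 95% interval of 66.6 to 951 that covers counting error only, and the 3 counts came from 1 library. In the other direction, HOTAIRM1, an RNA at the end of the HOXA cluster, had counts of 309, 342 and 436 in Empty and 6, 0 and 3 in LINC00862, and it fell by 6.79 on the log2 scale (standard error 0.64). MIR31HG, the host gene of a microRNA, fell by 2.87 (standard error 0.29). HOTTIP, BCAR4, SOX2-OT, PANDAR and FENDRR were too low to be tested, and LINC00473 and LINC-ROR were not analysed here.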
